A study of Homo sapiens with 9 samples.

Results

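The genes described here encode the extracellular matrix, the basement membrane and the receptors that hold a cell to it: 48 genes listed by symbol, of 57820 genes in the count table of Kyse150 and 60683 in that of TE11. Each symbol was matched to its Ensembl identifier, and the 48 identifiers are among the 52165 that the tables share. They comprise 11 collagens, 7 laminin chains, 10 integrin subunits, 9 matricellular proteins and matrix glycoproteins, 7 collagen-modifying enzymes, and 4 cell surface proteoglycans and anchors. The classes overlap in no gene.

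Kyse150 and TE11 are cell lines from human esophageal squamous cell carcinoma, grown in RPMI medium with fetal bovine serum. KDM2A is a histone H3 lysine demethylase whose zinc finger binds unmethylated CpG DNA, and a lentivirus brought in a short hairpin RNA against it (shKDM2A) or a control hairpin (shNC). The groups were 2 Kyse150 libraries with shKDM2A, 2 Kyse150 libraries with shNC, 2 TE11 libraries labelled as carrying shKDM2A and 3 TE11 libraries with shNC. Every group had thus received a lentiviral hairpin, the labels give no hairpin sequence, and nothing in them says that replicates came from separate cultures, so a p-value here speaks only of how these libraries vary, possibly for technical reasons. Counts assigned to genes ran from 6052883 to 7167055 per Kyse150 library and from 8457767 to 12073098 per TE11 library.

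Before any result, the label of the TE11 knockdown has to be set against its target. KDM2A stood at 105 and 102 CPM (counts scaled to a common library size) in Kyse150 knockdown libraries, against 169 and 171 CPM in Kyse150 controls (log2 fold change -0.71, SE 0.071, edgeR adjusted p = 3.874e-09). It stood at 132 and 146 CPM in the libraries labelled TE11 knockdown, against 124, 121 and 124 CPM in TE11 controls (log2 fold change 0.16, SE 0.070, edgeR adjusted p = 0.03348), which goes against the label. Against the 169 and 171 CPM of Kyse150 controls, KDM2A was called lower in the libraries labelled TE11 knockdown (log2 difference -0.29). Of the 48 genes, 39 had a mean level in the libraries labelled TE11 knockdown that lay closer to Kyse150 controls than to TE11 controls (81.2%), as did 65.3% of the 15895 genes in the fit of all libraries. Comparisons within TE11 are therefore given as labelled, and identity of line and effect of the hairpin cannot be told apart in them.

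A basement membrane is a sheet under an epithelium in which networks of laminin and type IV collagen are joined by nidogen and perlecan. Squamous epithelial cells sit on it through hemidesmosomes, where the integrin of ITGA6 and ITGB4, type XVII collagen and DST bind laminin outside the cell and keratin filaments inside it. Integrins are dimers of an alpha and a beta chain, and those with ITGAV or ITGA5 bind fibronectin and related ligands. Matricellular proteins such as thrombospondin 1 and tenascin C lie in the matrix without building it, and collagen chains need hydroxylation and cross-linking by enzymes before they form stable fibres.

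Across the 48 genes, the matrix genes of Kyse150 knockdown cells were more often higher than lower. Of the 43 that passed the filter on low counts in Kyse150, 21 rose, 7 fell and 15 did not pass the threshold, an adjusted p of 0.05 over all genes tested. Among all 14060 genes tested in that line 48.2% were called, 24.8% higher and 23.3% lower. The median log2 fold change was 0.21 over the 43 genes and 0.0023 over all genes tested. The 5 not tested, for low counts, were COL5A1, LAMA4, SPARC, FBN1 and LOX. In bulk libraries, fewer cells with a transcript and less of it per cell cannot be told apart. Most shifts were small: 16 of the 28 called genes passed 1.5-fold and 5 passed 2-fold.

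In TE11 as labelled, all but NID1 were tested, 47 genes, of which 19 were higher, 24 were lower and 4 did not pass. Among all 16453 genes tested there 78.1% were called, 35.9% higher and 42.2% lower, so a call in TE11 was the rule rather than the exception. The median log2 fold change was -0.54 over the 47 genes and -0.09 over all genes. The shifts were much larger than in Kyse150, with 28 of the 43 called genes past 2-fold. The share of all genes past 1.5-fold or 2-fold was computed in neither line. Larger shifts are thus not shown to be particular to these genes.

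**Figure D1:**
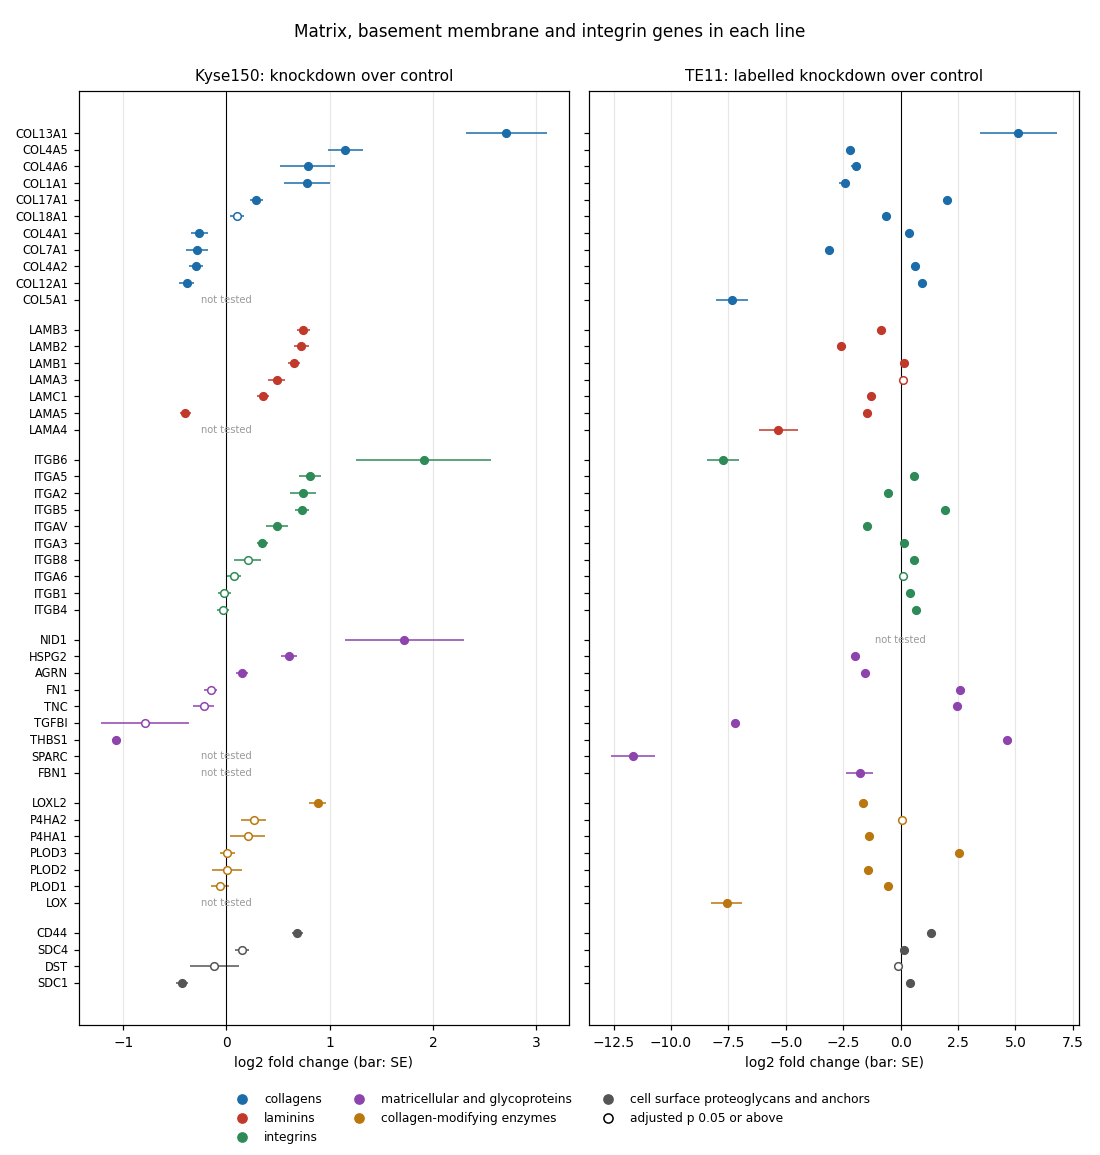
Log2 fold change of each gene (points, bars: SE) in Kyse150 knockdown over Kyse150 control on the left and in libraries labelled TE11 knockdown over TE11 control on the right, coloured by class, with open points where the adjusted p is 0.05 or above; the 2 horizontal axes differ in scale. In Kyse150 the called genes lie between -1.07 for THBS1 and 2.71 for COL13A1, while in TE11 the fitted values of genes with 1 to 3 counts in a group (COL13A1, LAMA4, SPARC) are no bound.

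Thrombospondin 1 dominated the set. THBS1 (ENSG00000137801, chromosome 15, 39581079 to 39599466, plus strand, GRCh38), a matricellular protein that can release TGF-beta from its latent form, had 2666 and 2662 CPM in Kyse150 knockdown libraries, against 5514 and 5697 CPM in Kyse150 controls. Libraries labelled TE11 knockdown had 6188 and 6088 CPM, against 238, 241 and 259 CPM in TE11 controls. No groups overlapped, and the labelled TE11 knockdown stood nearer to Kyse150 controls (log2 difference 0.13, SE 0.049, edgeR adjusted p = 0.02152) than to the controls of its own line. On the log2 scale THBS1 fell by 1.07 in Kyse150 (SE 0.045, 2.09-fold lower, edgeR adjusted p = 1.443e-16) and was higher by 4.63 in TE11 as labelled (SE 0.053, 24.7-fold higher, edgeR adjusted p = 3.169e-46). Its level per kilobase of exon was 291 CPM in Kyse150 knockdown, 612 CPM in Kyse150 control, 670.2 CPM in labelled TE11 knockdown and 26.9 CPM in TE11 control.

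Because of this gene, the summed level of the 48 genes and the count of genes called point opposite ways in Kyse150. THBS1 made up 26.1% to 26.5% of the summed CPM of the 48 genes in Kyse150 knockdown libraries and 45.7% to 45.9% in Kyse150 controls. The sum of the other 47 genes was 7387 to 7548 CPM in Kyse150 knockdown libraries, against 6561 to 6724 CPM in Kyse150 controls. In TE11 the share of THBS1 was 44.9% to 45.4% in labelled knockdown libraries and 2.51% to 2.70% in controls, and the sum of the other 47 genes was 7439 to 7473 CPM in labelled knockdown libraries, against 9092 to 9349 CPM in controls.

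**Figure D2:**
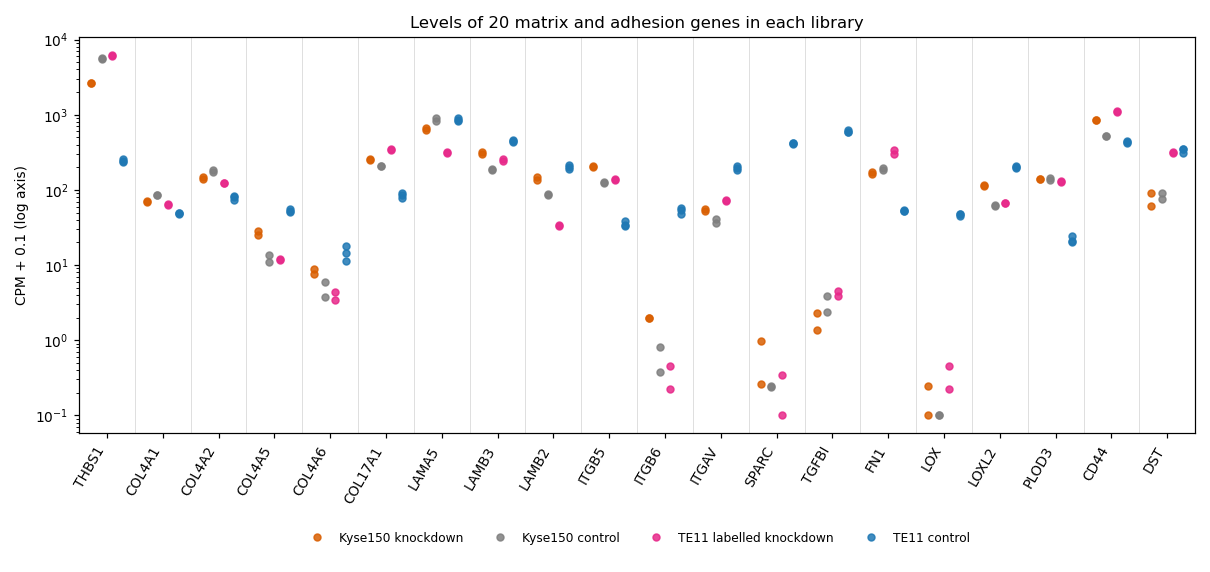
Level of 20 of the genes in each of the 9 libraries, as CPM + 0.1 on a log axis; each point is a library, and within each gene the groups run from Kyse150 knockdown and Kyse150 control to labelled TE11 knockdown and TE11 control. THBS1, COL4A5, LAMB3 and LOXL2 separate Kyse150 knockdown from control, and TGFBI lies 146-fold lower in labelled TE11 knockdown than in TE11 controls, and LOX and ITGB6, at 4 counts each in that group, are near the bottom of the axis.

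Collagens differed in direction by chain: 5 of the 10 tested in Kyse150 rose, 4 fell and COL18A1 did not pass. Type IV collagen, the network former of basement membranes, was itself divided. Its chains are encoded in pairs that stand head to head and share the DNA between their starts, and the pairs moved in opposite directions in each line. The sequences between the starts are shown because the members of each pair share them. They are from RefSeq on GRCh38.p14, plus strand, 5′ to 3′, with each CpG in capitals. The first, chr13:110307158-110307283, is the whole interval of 126 bases between the start of COL4A1 on the minus strand and that of COL4A2 on the plus strand, and holds 20 CpG. The second, chrX:108439588-108439708, is a stretch of 121 bases, with 3 CpG, of the 379 bases between the starts of COL4A6 on the minus strand and COL4A5 on the plus strand.
COL4A1 to COL4A2: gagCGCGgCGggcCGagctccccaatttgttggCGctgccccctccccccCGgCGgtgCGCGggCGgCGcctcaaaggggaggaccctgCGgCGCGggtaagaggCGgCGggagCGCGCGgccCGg
COL4A6 to COL4A5: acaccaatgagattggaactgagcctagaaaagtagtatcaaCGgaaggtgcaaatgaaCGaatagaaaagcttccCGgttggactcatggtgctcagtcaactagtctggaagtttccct

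COL4A1 had 69.1 and 71.2 CPM in Kyse150 knockdown libraries, against 84.5 and 84.7 CPM in Kyse150 controls, and 62.2 and 64.7 CPM in labelled TE11 knockdown libraries, against 49.0, 47.1 and 49.8 CPM in TE11 controls. COL4A2 had 150.1 and 138 CPM in Kyse150 knockdown libraries, against 175 and 182 CPM in Kyse150 controls, and 122 and 125 CPM in labelled TE11 knockdown libraries, against 84.1, 72.9 and 79.8 CPM in TE11 controls. These ubiquitous chains were thus slightly lower in Kyse150 knockdown and slightly higher in labelled TE11 knockdown, with no overlap of groups. The log2 fold change in Kyse150 was -0.26 for COL4A1 (SE 0.085, edgeR adjusted p = 0.01184) and -0.30 for COL4A2 (SE 0.069, edgeR adjusted p = 0.0007848). Without Kyse150 knockdown replicate 1, COL4A1 was at -0.24 and no longer called (edgeR adjusted p = 0.07214), and it was not called by DESeq2 (adjusted p = 0.07754). In TE11 as labelled it was 0.37 for COL4A1 (SE 0.084) and 0.63 for COL4A2 (SE 0.075) (edgeR adjusted p = 0.0001292 for COL4A1 and 2.832e-10 for COL4A2).

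COL4A5, whose product forms a network with that of COL4A6 in epithelial basement membranes, had 27.9 and 25.3 CPM in Kyse150 knockdown libraries, against 13.3 and 10.7 CPM in Kyse150 controls. In TE11 it had 12.1 and 11.5 CPM in labelled knockdown libraries, against 50.8, 55.9 and 53.0 CPM in controls. COL4A6 had 7.42 and 8.84 CPM in Kyse150 knockdown libraries, against 3.61 and 5.86 CPM in Kyse150 controls, and 4.28 and 3.37 CPM in labelled TE11 knockdown libraries, against 11.3, 17.9 and 14.3 CPM in TE11 controls. Both rose in Kyse150, COL4A5 by 1.15 on the log2 scale (SE 0.17, edgeR adjusted p = 1.719e-06) and COL4A6 by 0.78 (SE 0.27, edgeR adjusted p = 0.0166). The call of COL4A6 was lost without Kyse150 control replicate 1 (0.47, edgeR adjusted p = 0.2241), without Kyse150 knockdown replicate 2 (0.65, edgeR adjusted p = 0.09866) and in DESeq2 (adjusted p = 0.1496). Both were lower in TE11 as labelled, by a log2 fold change of -2.19 (SE 0.12) and -1.94 (SE 0.23), with edgeR adjusted p = 2.348e-21 for COL4A5 and 3.245e-11 for COL4A6.

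COL13A1, a transmembrane collagen of adhesion sites, showed the largest rise among the 48 genes in Kyse150. It had 11.9 and 7.42 CPM in knockdown libraries, against 1.81 and 1.14 CPM in controls (log2 fold change 2.71, SE 0.39, 6.54-fold, edgeR adjusted p = 2.208e-07). In TE11 it rested on 25 counts in the labelled knockdown and 1 count in the controls, a ratio of 49.9 with an exact 95% interval of 8.17 to 2049 that covers counting error only.

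COL1A1, a chain of the main fibrillar collagen of stroma, had 11.1 and 10.4 CPM in Kyse150 knockdown libraries, against 6.12 and 6.44 CPM in Kyse150 controls (log2 fold change 0.78, SE 0.22, edgeR adjusted p = 0.004555, but 0.07643 in DESeq2). It had 2.69 and 3.49 CPM in labelled TE11 knockdown libraries, against 17.8, 15.5 and 16.6 CPM in TE11 controls (log2 fold change -2.44, SE 0.23, edgeR adjusted p = 4.501e-15). So COL1A1 was a low-level transcript in each group. Of 14 fibroblast markers, COL1A2, DCN, LUM and THY1 were at or near 0 in every library, but others were not. FAP had 9.18, 9.61 and 8.72 CPM in TE11 controls and 0 CPM in every other library. COL3A1 had 1.65, 1.45 and 3.80 CPM in TE11 controls and 0.158 CPM or less elsewhere. ACTA2 and TAGLN had counts in every library. The summed level of the 14 markers was 9.001 to 9.46 CPM in Kyse150 knockdown, 3.72 to 5.28 CPM in Kyse150 control, 5.38 to 8.03 CPM in labelled TE11 knockdown and 17.0 to 19.3 CPM in TE11 control.

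COL7A1, the anchoring fibril collagen that ties the basement membrane to the tissue beneath, had 47.9 and 40.9 CPM in Kyse150 knockdown libraries, against 52.7 and 56.2 CPM in Kyse150 controls. Its log2 change of -0.28 (SE 0.10, edgeR adjusted p = 0.02682) was no longer called without Kyse150 knockdown replicate 2 (-0.18, edgeR adjusted p = 0.2603), without Kyse150 control replicate 2 (-0.24, edgeR adjusted p = 0.1319) or in DESeq2 (adjusted p = 0.1442). In TE11 it had 23.0 and 19.4 CPM in labelled knockdown libraries, against 187, 171 and 188 CPM in controls (log2 fold change -3.12, SE 0.098, edgeR adjusted p = 4.651e-31). COL5A1, a fibrillar collagen that nucleates fibres, was at 0 counts in all 4 Kyse150 libraries and at 0.244 and 0.233 CPM in labelled TE11 knockdown libraries, against 43.2, 36.9 and 40.0 CPM in TE11 controls (log2 fold change -7.33, SE 0.69, edgeR adjusted p = 2.337e-27).

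The other 3 collagens were COL17A1, COL12A1 and COL18A1. COL17A1, the collagen of hemidesmosomes, was higher in both lines, with log2 fold changes of 0.29 in Kyse150 (SE 0.060) and 2.02 in TE11 as labelled (SE 0.068). COL12A1, a fibril-associated collagen, was lower in Kyse150 (-0.39, SE 0.076) and higher in TE11 as labelled (0.94, SE 0.066). COL18A1, the source of endostatin, was at 0.10 (SE 0.068, edgeR adjusted p = 0.2316) in Kyse150 and lower in TE11 as labelled (-0.62, SE 0.073); 16.4% of its exon length overlaps the exons of SLC19A1, from which its reads may not be told apart.

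Laminin chains were mostly higher in Kyse150 knockdown: 5 of the 6 tested rose, and LAMA5 fell. LAMB3, the beta chain of the laminin that hemidesmosomes bind, had 322 and 304 CPM in Kyse150 knockdown libraries, against 191 and 185 CPM in Kyse150 controls (log2 fold change 0.74, SE 0.061, edgeR adjusted p = 9.982e-11). LAMA3, the alpha chain of the same laminin, had 104 and 103 CPM in Kyse150 knockdown libraries, against 71.6 and 77.4 CPM in Kyse150 controls (log2 fold change 0.49, SE 0.081, edgeR adjusted p = 1.638e-05). These chains stood above every Kyse150 control in both knockdown libraries.

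The beta chains of the other laminins rose by a like amount. LAMB2 had 147 and 137 CPM in Kyse150 knockdown libraries, against 85.3 and 87.8 CPM in Kyse150 controls (log2 fold change 0.73, SE 0.076, edgeR adjusted p = 9.265e-09). LAMB1 had 326 and 338 CPM in Kyse150 knockdown libraries, against 211 and 212 CPM in Kyse150 controls (log2 fold change 0.66, SE 0.059, edgeR adjusted p = 5.481e-10). LAMC1, the gamma chain that most laminins share, rose by 0.36 (SE 0.057). LAMA5, the alpha chain of the laminins common to mature epithelia, had 668 and 627 CPM in Kyse150 knockdown libraries, against 824 and 892 CPM in Kyse150 controls (log2 fold change -0.40, SE 0.054, edgeR adjusted p = 7.594e-07).

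Of the 7 laminin chains in TE11 as labelled, 5 were lower, LAMB1 was higher and LAMA3 did not pass. LAMB2 had 33.4 and 34.3 CPM in labelled knockdown libraries, against 211, 201 and 192 CPM in TE11 controls (log2 fold change -2.59, SE 0.084, edgeR adjusted p = 8.309e-30). LAMA5 had 319.5 and 313 CPM in labelled knockdown libraries, against 863, 818 and 913 CPM in TE11 controls (log2 fold change -1.47, SE 0.059, edgeR adjusted p = 1.74e-25). LAMA5 was thus lower in both lines.

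LAMB3 had 240.2 and 254 CPM in labelled TE11 knockdown libraries, against 462, 429 and 444 CPM in TE11 controls (log2 fold change -0.86, SE 0.060, edgeR adjusted p = 5.271e-17), while LAMA3 had 132 and 137 CPM, against 118, 120.2 and 130.0 CPM (0.12, SE 0.070, edgeR adjusted p = 0.1252). LAMA4, the alpha chain of laminins of mesenchymal cells and vessels, held 3 counts in labelled TE11 knockdown libraries and 253 in TE11 controls, a ratio of 0.0237 (exact 95% interval 0.00485 to 0.0700), and none in Kyse150. The 0.15 log2 rise of LAMB1 (SE 0.064, edgeR adjusted p = 0.03603) was lost in 10 alternative fits, among them those without TE11 control replicate 2 (0.12, edgeR adjusted p = 0.09138), without TE11 control replicate 3 (0.16, edgeR adjusted p = 0.05674), and without labelled knockdown replicate 1 (0.17, edgeR adjusted p = 0.1052) or 2 (0.14, edgeR adjusted p = 0.19).

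Integrin subunits rose or did not pass in Kyse150: 6 of 10 rose and none fell. ITGA5, the fibronectin receptor alpha chain, had 68.2 and 61.0 CPM in Kyse150 knockdown libraries, against 36.1 and 38.0 CPM in Kyse150 controls (log2 fold change 0.81, SE 0.10, edgeR adjusted p = 2.825e-07). ITGA2, the alpha chain of a collagen receptor, had 42.6 and 39.2 CPM in Kyse150 knockdown libraries, against 22.8 and 26.6 CPM in Kyse150 controls (log2 fold change 0.74, SE 0.13, edgeR adjusted p = 2.134e-05). ITGB5, a beta partner of ITGAV in vitronectin receptors, had 208 and 204 CPM in Kyse150 knockdown libraries, against 127 and 123 CPM in Kyse150 controls (log2 fold change 0.73, SE 0.067, edgeR adjusted p = 7.981e-10). The knockdown libraries lay above both controls for each of these chains.

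ITGAV itself, the alpha chain of several receptors for RGD-bearing ligands, had 56.1 and 51.6 CPM in Kyse150 knockdown libraries, against 41.1 and 35.9 CPM in Kyse150 controls (log2 fold change 0.49, SE 0.11, edgeR adjusted p = 0.0004102). ITGA3, the alpha chain of a laminin receptor, rose by 0.35 (SE 0.052). ITGB6, an epithelial partner of ITGAV, had 1.89 and 1.89 CPM in Kyse150 knockdown libraries, against 0.278 and 0.715 CPM in Kyse150 controls (log2 fold change 1.91, SE 0.65, edgeR adjusted p = 0.008686). That call rested on few counts and was lost without Kyse150 control replicate 1 (1.39, edgeR adjusted p = 0.1626), without Kyse150 knockdown replicate 1 (1.91, edgeR adjusted p = 0.0712) or 2 (1.90, edgeR adjusted p = 0.06902), and in DESeq2 (adjusted p = 0.1298). Without Kyse150 control replicate 2 the value was 2.69 and the call held.

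The chains of the hemidesmosome receptor and the common beta chain did not pass in Kyse150. ITGA6 had 172 and 183 CPM in knockdown libraries, against 170.4 and 169.9 CPM in controls, and differed by 0.07 on the log2 scale (SE 0.066, edgeR adjusted p = 0.3944). ITGB4 had 552 and 507 CPM in knockdown libraries, against 533 and 558 CPM in controls (-0.04, SE 0.055, edgeR adjusted p = 0.6275). ITGB1, the partner of most alpha chains listed here, had 310.4 and 352 CPM in knockdown libraries, against 344 and 332 CPM in controls (-0.02, SE 0.061, edgeR adjusted p = 0.7922). The groups overlapped for ITGB4 and ITGB1.

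Of the integrin subunits in TE11 as labelled, 6 were higher, 3 were lower and ITGA6 did not pass. ITGB6 had 0.122 and 0.349 CPM in labelled knockdown libraries, against 47.6, 56.998 and 53.1 CPM in TE11 controls (log2 fold change -7.73, SE 0.70, edgeR adjusted p = 3.673e-29). With 4 counts in the labelled knockdown, the value was -8.62 without labelled knockdown replicate 2 and -7.19 without replicate 1. Of its exon length, 20.6% overlaps exons of the antisense gene AC092153.1. ITGAV had 73.8 and 71.6 CPM in labelled knockdown libraries, against 184, 207 and 196 CPM in TE11 controls (-1.44, SE 0.074, edgeR adjusted p = 6.886e-22). ITGB5 had 136 and 137 CPM in labelled knockdown libraries, against 38.9, 32.6 and 33.6 CPM in TE11 controls (1.95, SE 0.082, edgeR adjusted p = 1.792e-25). So the partners of ITGAV differed in direction, ITGB6 being lower and ITGB5 higher, and ITGB8, a further partner, was also higher (0.60, SE 0.12).

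ITGB4 had 507 and 514 CPM in labelled TE11 knockdown libraries, against 332, 304 and 325 CPM in TE11 controls (0.66, SE 0.059, edgeR adjusted p = 7.62e-14). ITGB1 had 545 and 539.9 CPM in labelled knockdown libraries, against 389.7, 419 and 411 CPM in TE11 controls (0.40, SE 0.057, edgeR adjusted p = 2.843e-08). ITGA6 had 418 and 427 CPM in labelled knockdown libraries, against 357, 415 and 391 CPM in TE11 controls (0.11, SE 0.061, edgeR adjusted p = 0.09329), and passed only when TE11 control replicate 2 was left out (0.15, edgeR adjusted p = 0.01667) or all 9 libraries were fitted together (0.13, edgeR adjusted p = 0.04138). ITGA2 was lower (-0.56, SE 0.082) and ITGA5 higher (0.56, SE 0.11). The call of ITGA3 (0.14, SE 0.059, edgeR adjusted p = 0.02455) was lost without TE11 control replicate 2 (0.096, edgeR adjusted p = 0.1181) or 3 (0.13, edgeR adjusted p = 0.1075) and without labelled knockdown replicate 1 (0.16, edgeR adjusted p = 0.09504) or 2 (0.14, edgeR adjusted p = 0.1377).

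Among matricellular proteins and glycoproteins, 7 of 9 were tested in Kyse150, of which NID1, HSPG2 and AGRN rose, THBS1 fell and FN1, TNC and TGFBI did not pass. The genes that rose encode linkers and heparan sulfate proteoglycans of the basement membrane. HSPG2, perlecan, had 166 and 146 CPM in Kyse150 knockdown libraries, against 100.5 and 106 CPM in Kyse150 controls (log2 fold change 0.60, SE 0.076, edgeR adjusted p = 2.446e-07); 11.7% of its exon length overlaps LDLRAD2. NID1, nidogen, had 2.18 and 2.05 CPM in Kyse150 knockdown libraries, against 0.695 and 0.572 CPM in Kyse150 controls (1.72, SE 0.58, edgeR adjusted p = 0.008751). Leaving out any Kyse150 library ended the call of NID1, with log2 fold changes of 1.59 to 1.86 and edgeR adjusted p = 0.05804 without control replicate 1, 0.08742 without control replicate 2, 0.08891 without knockdown replicate 1 and 0.06147 without knockdown replicate 2.

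AGRN, agrin, had 584 and 541 CPM in Kyse150 knockdown libraries, against 493 and 526 CPM in Kyse150 controls (0.15, SE 0.055, edgeR adjusted p = 0.02514), a rise that was lost without Kyse150 control replicate 1 (0.10, edgeR adjusted p = 0.2738), without Kyse150 knockdown replicate 1 (0.092, edgeR adjusted p = 0.3109) and in DESeq2 (adjusted p = 0.08398). FN1, fibronectin, was at -0.15 (SE 0.067, edgeR adjusted p = 0.05757), and TNC, tenascin C, was at -0.22 (SE 0.11, edgeR adjusted p = 0.08256). FN1 passed in 1 of 11 alternative fits, that with no filter on low counts (-0.17, edgeR adjusted p = 0.04827). TGFBI, a TGF-beta induced matrix protein that binds integrins and collagen, was at -0.79 (SE 0.43, edgeR adjusted p = 0.123).

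In this class 3 genes were higher and 5 lower in TE11 as labelled, and all 8 tested passed 2-fold. SPARC, a collagen-binding glycoprotein, had 0.244 and 0 CPM in labelled knockdown libraries, against 419.5, 419 and 409.5 CPM in TE11 controls. Those values rest on 2 counts, both in replicate 1, and 13941 counts, a ratio of 0.000286 (exact 95% interval 3.469e-05 to 0.001035). In Kyse150 SPARC held 7 counts in knockdown libraries and 2 in controls, a ratio of 3.76 with an interval of 0.716 to 37.1 that includes no change.

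TGFBI followed the same pattern, with 3.79 and 4.42 CPM in labelled TE11 knockdown libraries, against 621, 582 and 586 CPM in TE11 controls (log2 fold change -7.19, SE 0.17, edgeR adjusted p = 9.666e-43). FN1 (2.58, SE 0.071) and TNC (2.46, SE 0.10) were higher beside THBS1, and HSPG2 (at 0.25 of the control level) and AGRN (-1.53, SE 0.057) were lower. FBN1, the microfibril protein fibrillin, was lower (-1.78, SE 0.60, edgeR adjusted p = 0.002617), a call lost without labelled knockdown replicate 1 (-1.40, edgeR adjusted p = 0.05576).

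Of the collagen-modifying enzymes, LOXL2 alone among the 6 tested passed in Kyse150. LOXL2, a lysyl oxidase that cross-links collagen, had 116 and 112 CPM in knockdown libraries, against 63.5 and 60.9 CPM in controls (log2 fold change 0.88, SE 0.082, edgeR adjusted p = 1.022e-09). The prolyl hydroxylases P4HA1 and P4HA2 were at 0.20 (SE 0.16, edgeR adjusted p = 0.3215) and 0.26 (SE 0.12, edgeR adjusted p = 0.06835). P4HA2 passed without Kyse150 knockdown replicate 2 (0.39, edgeR adjusted p = 0.01639) and under upper quartile scaling (0.29, edgeR adjusted p = 0.04249). The lysyl hydroxylases PLOD1, PLOD2 and PLOD3 lay between -0.06 and 0.01, with edgeR adjusted p = 0.5704 or above.

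Of the 7 enzymes in TE11 as labelled, 5 were lower, PLOD3 was higher and P4HA2 did not pass (0.06, SE 0.11, edgeR adjusted p = 0.6244). LOX, the founding lysyl oxidase, had 0.122 and 0.349 CPM in labelled knockdown libraries, against 45.4, 47.8 and 47.7 CPM in TE11 controls (log2 fold change -7.56, SE 0.68, edgeR adjusted p = 7.917e-29). It too rested on 4 counts in the labelled knockdown, and the value was -8.46 without labelled knockdown replicate 2 and -7.03 without replicate 1. LOXL2 had 67.0 and 66.3 CPM in labelled knockdown libraries, against 209, 196 and 202 CPM in TE11 controls (-1.62, SE 0.073, edgeR adjusted p = 6.352e-24). PLOD3 had 127 and 129.9 CPM in labelled knockdown libraries, against 24.0, 20.7 and 20.2 CPM in TE11 controls (2.56, SE 0.089, edgeR adjusted p = 5.461e-29). Lysyl hydroxylases therefore differed in direction in TE11, since PLOD1 (-0.54, SE 0.079) and PLOD2 (-1.41, SE 0.082) were lower.

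At the cell surface, CD44 was higher in both lines. CD44, the hyaluronan receptor, had 843 and 846 CPM in Kyse150 knockdown libraries, against 528 and 528 CPM in Kyse150 controls (log2 fold change 0.69, SE 0.050, edgeR adjusted p = 1.183e-11), and 1124 and 1084 CPM in labelled TE11 knockdown libraries, against 436, 446 and 424 CPM in TE11 controls (1.33, SE 0.055, edgeR adjusted p = 1.07e-25). SDC1, the syndecan of stratified epithelia, had 239.7 and 225 CPM in Kyse150 knockdown libraries, against 309 and 321 CPM in Kyse150 controls (-0.43, SE 0.060, edgeR adjusted p = 1.198e-06). It had 325 and 333 CPM in labelled TE11 knockdown libraries, against 267, 228 and 232 CPM in TE11 controls (0.43, SE 0.065, edgeR adjusted p = 1.053e-07), so its direction differed between the lines.

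SDC4, the syndecan of focal adhesions, had 165 and 166 CPM in labelled TE11 knockdown libraries, against 147, 149 and 146 CPM in TE11 controls (0.15, SE 0.066, edgeR adjusted p = 0.03599), and was at 0.15 in Kyse150 (SE 0.066, edgeR adjusted p = 0.06302). The TE11 call was lost in 9 alternative fits, among them DESeq2 (adjusted p = 0.06411), upper quartile scaling (0.091, edgeR adjusted p = 0.2115) and those without TE11 control replicate 3 (0.13, edgeR adjusted p = 0.1387) and without labelled knockdown replicate 1 (0.17, edgeR adjusted p = 0.1219) or 2 (0.15, edgeR adjusted p = 0.1664), and SDC4 passed in Kyse150 without control replicate 2 (0.21, edgeR adjusted p = 0.03892). DST, the plakin that ties hemidesmosomes to keratin, had 60.1 and 92.1 CPM in Kyse150 knockdown libraries, against 90.3 and 74.8 CPM in Kyse150 controls, and the groups overlapped (-0.12, SE 0.24, edgeR adjusted p = 0.7335). Without Kyse150 knockdown replicate 2 the value was -0.45 (edgeR adjusted p = 0.0003589), and without replicate 1 it was 0.16 (edgeR adjusted p = 0.2411). DST was at -0.13 in TE11 as labelled (SE 0.062, edgeR adjusted p = 0.06272), and passed in 4 of 12 alternative fits. It passed without TE11 control replicate 1 (-0.19, edgeR adjusted p = 0.0002012) and under upper quartile scaling (-0.19, edgeR adjusted p = 0.00657). It also passed under RLE scaling (-0.13, edgeR adjusted p = 0.04452) and with a mean of 1 CPM or more (-0.14, edgeR adjusted p = 0.04285).

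The responses of the lines were then set against each other. Of the 42 genes tested in both, 26 were called in both, 9 in the same direction and 17 (65.4%) in opposite directions. Over the 13276 genes tested in both lines, 5323 were called in both and 72.2% of those in opposite directions, so the share of opposite calls among the 42 was not above the background. Genes higher in both were 7, genes lower in both were COL7A1 and LAMA5, 12 were higher in Kyse150 and lower in TE11 as labelled, and 5 were lower in Kyse150 and higher in TE11 as labelled. Those 5 were COL4A1, COL4A2, COL12A1, THBS1 and SDC1. The 12 were COL1A1, COL4A5, COL4A6, LAMB2, LAMB3, LAMC1, ITGA2, ITGAV, ITGB6, HSPG2, AGRN and LOXL2.

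**Figure D3:**
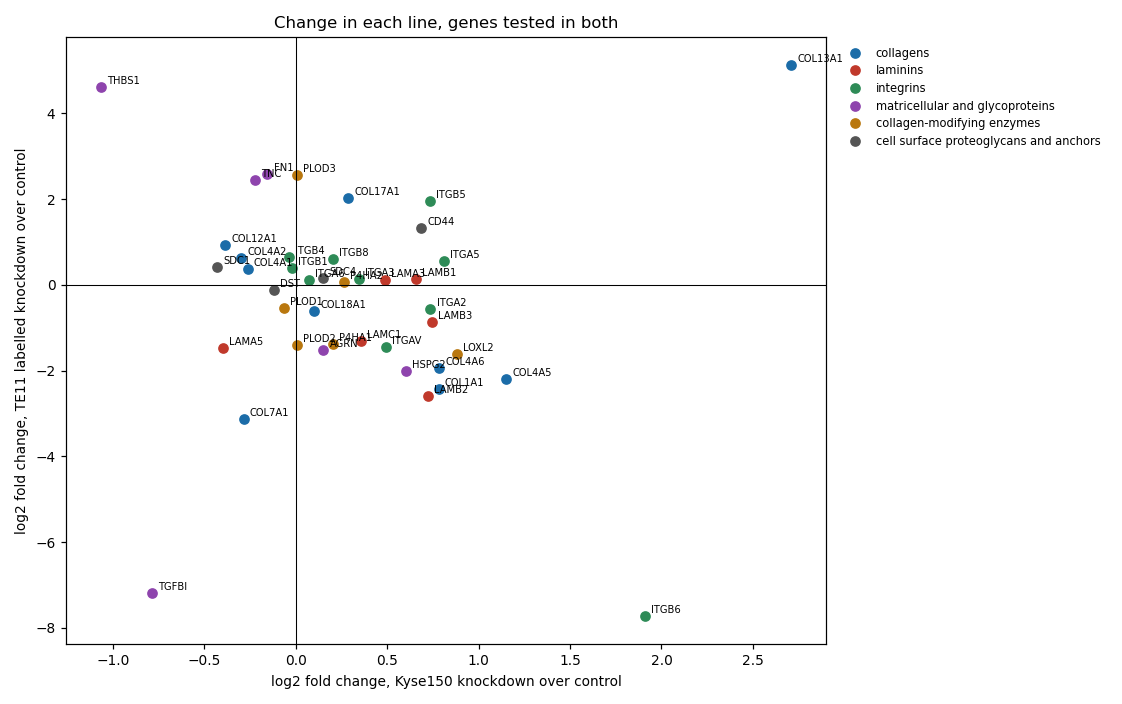
Log2 fold change of the 42 genes tested in both lines, Kyse150 knockdown over control on the horizontal axis and labelled TE11 knockdown over control on the vertical axis, coloured by class; the axes differ in scale. THBS1 lies alone at the upper left (-1.07 and 4.63), ITGB6 at the lower right (1.91 and -7.73) and CD44, ITGB5 and COL17A1 at the upper right.

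In a single fit of all 9 libraries, the TE11 response as labelled minus the Kyse150 response was called for 40 of the 48 genes, 15 positive and 25 negative, where 66.9% of 15895 genes were called, 33.8% positive and 33.1% negative. The median difference was -0.59 on the log2 scale over the 48 genes and -0.06 over all genes. The largest estimable differences were those of SPARC (-13.41, SE 1.49, resting on 2 counts in labelled TE11 knockdown and 2 in Kyse150 control), ITGB6 (-9.61, SE 0.95, edgeR adjusted p = 3.137e-18) and TGFBI (-6.38, SE 0.39, edgeR adjusted p = 2.738e-17), followed by THBS1 (5.71, SE 0.068, edgeR adjusted p = 1.485e-57). LOX was called too, but with 0 counts in Kyse150 controls its difference has no finite estimate. For ITGA5, ITGA6, P4HA2, SDC4 and DST the difference did not pass; it was -0.22 (SE 0.15) for ITGA5 and 0.06 (SE 0.091) for ITGA6. COL5A1 and LAMA4, at 0 in Kyse150, and FBN1 did not pass either.

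Levels across the 4 groups placed the lines apart before any knockdown. In TE11 controls against Kyse150 controls, 25 of the 48 genes were higher and 18 lower, where 79.7% of all genes were called, 43.7% higher and 36% lower; line and count table cannot be told apart here. TGFBI averaged 596 ± 21.6 CPM in TE11 controls (SD, n = 3) and 3.02 ± 1.04 CPM in Kyse150 controls (SD, n = 2). SPARC held 13941 counts in TE11 controls and 2 in Kyse150 controls, a ratio of 2951 (exact 95% interval 817 to 24370). Against a floor of 3 counts over the Kyse150 control group, LOX was at least 222-fold higher in TE11 controls, COL5A1 at least 189-fold higher and LAMA4 at least 35.7-fold higher. THBS1 was 22.8-fold lower in TE11 controls, PLOD3 6.42-fold lower and ITGB5 3.56-fold lower.

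The libraries labelled TE11 knockdown lay nearer to Kyse150 controls. Against those controls 16 genes were higher, 11 were lower and 21 did not pass, where 53.6% of all genes were called, 29.1% higher and 24.5% lower. The median absolute log2 difference over the 48 genes was 0.642 here, against 1.36 for TE11 controls minus Kyse150 controls. Called genes past 2-fold numbered 9, and none passed 4-fold, whereas 14 passed 4-fold between the controls of the lines. Neither the share of all genes past these folds nor their median absolute difference was computed. Of those 9 genes, the largest differences were those of DST (log2 difference 1.93, SE 0.17), LAMA5 (-1.44, SE 0.060), COL7A1 (-1.36, SE 0.11), LAMB2 (-1.35, SE 0.093) and ITGA6 (1.31, SE 0.067), and the others were ITGA2 (1.16, SE 0.11), CD44 (1.06, SE 0.056), HSPG2 (-1.05, SE 0.093) and COL1A1 (-1.02, SE 0.27).

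**Figure D4:**
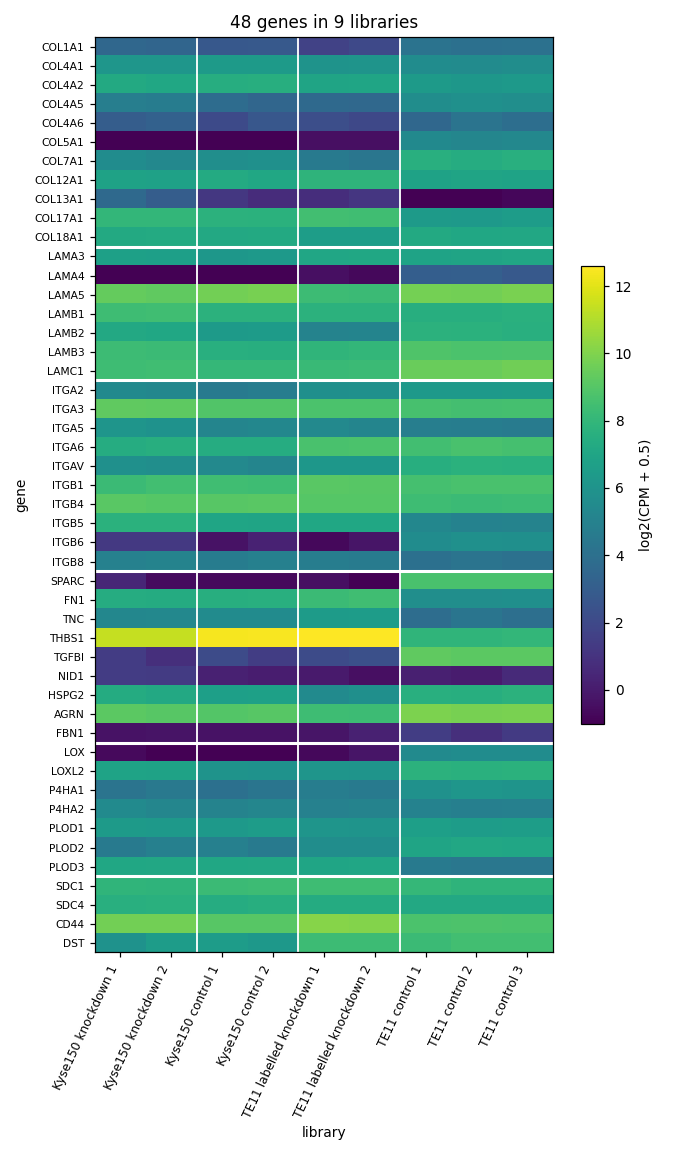
Level of the 48 genes in the 9 libraries as log2(CPM + 0.5), grouped by class between the horizontal lines; columns run from Kyse150 knockdown and Kyse150 control to labelled TE11 knockdown and TE11 control. SPARC, TGFBI, LOX, COL5A1 and ITGB6 are brighter in the 3 TE11 controls than in the other 6 libraries, where they are dark. THBS1 is less bright in the TE11 controls than in the other 6 libraries but dark in none.

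Markers of the cell type differed with the same groups. The summed level of 14 squamous markers was 2257 to 2275 CPM in Kyse150 knockdown, 2514 to 2566 CPM in Kyse150 control, 2269 to 2313 CPM in labelled TE11 knockdown and 5327 to 5822 CPM in TE11 control. KRT5 was the largest part of the squamous sum in every library. KRT5 and TP63 were present in every library, while KRT4, SOX2 and KRT13 were at 1.34 CPM or below outside the TE11 controls, where KRT4 was at 15.7 to 18.2 CPM. Of the 14 markers, 11 were higher and 2 lower in TE11 controls than in Kyse150 controls (all genes: 43.7% and 36%). PKP1 had 9.64, 7.43 and 9.76 CPM in TE11 controls, against 81.3 and 81.8 CPM in Kyse150 controls. CDH1 had 316, 298 and 311 CPM, against 418 and 420 CPM. KRT14 was highest in Kyse150 knockdown, at 48.3 and 49.6 CPM. PTPRC, the defining leukocyte gene, was at 0 in all 9 libraries, and 10 leukocyte markers summed to 2.08 to 5.05 CPM. The 10 columnar markers, nearly all of it KRT8 and KRT18, which simple epithelia share, summed to 7077 to 7622 CPM in Kyse150 knockdown, 6330 to 6418 CPM in Kyse150 control, 6451 to 6640 CPM in labelled TE11 knockdown and 2842 to 3189 CPM in TE11 control, and the 10 endothelial markers, mostly EGFL7, summed to 39.6 to 40.4 CPM in Kyse150 knockdown, 16.0 to 20.6 CPM in Kyse150 control, 13.5 to 13.6 CPM in labelled TE11 knockdown and 71.0 to 79.4 CPM in TE11 control. The part of these differences in the results above was not tested.

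Ordered per kilobase of exon, the highest of the 48 genes in Kyse150 controls after THBS1 were SDC1 at 87.6 CPM, ITGB4 at 80.7 CPM, SDC4 at 68.1 CPM, LAMA5 at 60.04 CPM and ITGB1 at 56.2 CPM. In TE11 controls the highest were LAMB3 at 94.9 CPM, LAMC1 at 89.1 CPM, SPARC at 86.1 CPM and AGRN at 86.0 CPM. SPARC and AGRN thus stood side by side there, while SPARC was at 0.0292 CPM per kilobase in Kyse150 controls.

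Further genes of the same pathways, from lists that are not part of the 48, were counted in the same fits. Beside these counts, 24.8% of all genes tested were higher and 23.3% lower in Kyse150. In TE11 as labelled the shares were 35.9% higher and 42.2% lower. Of 8 further collagens tested in Kyse150, 4 rose and none fell; of 14 tested in TE11 as labelled, 2 were higher and 12 lower. COL27A1, a fibrillar collagen, had 10.0 and 10.6 CPM in Kyse150 knockdown libraries, against 3.89 and 4.72 CPM in Kyse150 controls (log2 fold change 1.26), and COL6A1 (1.39) and COL16A1 (0.79) rose as well. In TE11 as labelled COL5A2, the partner chain of COL5A1, was at -7.62, COL27A1 at -4.51 and COL16A1 at -4.01. Of the further basement membrane genes, 3 of 4 rose in Kyse150 and 11 of 13 were lower in TE11 as labelled. FBLN1, fibulin 1, had 54.7 and 46.6 CPM in Kyse150 knockdown libraries, against 16.4 and 16.4 CPM in Kyse150 controls (1.63), and 11.6 and 9.19 CPM in labelled TE11 knockdown libraries, against 201, 189.8 and 184 CPM in TE11 controls (-4.22).

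Genes of the inner side of adhesion sites fell more often than they rose in Kyse150. Of 25 tested, 12 fell and 4 rose, where 23.3% of all genes fell and 24.8% rose. In TE11 as labelled 15 of 26 were higher and 8 lower, where 35.9% of all genes were higher and 42.2% lower. PLEC, plectin, which ties hemidesmosomes to keratin, had 1187 and 1069.7 CPM in Kyse150 knockdown libraries, against 2756 and 2843 CPM in Kyse150 controls (-1.30), and 1895 and 1863 CPM in labelled TE11 knockdown libraries, against 545, 505 and 574 CPM in TE11 controls (1.78). BCAR1, a focal adhesion scaffold, fell by 0.68 and TNS4, a tensin, fell by 0.98 on the log2 scale in Kyse150. NEDD9, a scaffold related to BCAR1, was at -5.74 and FERMT2, a kindlin that activates integrins, at -2.81 in TE11 as labelled. NEDD9 was among the 4 genes that rose in Kyse150 (3.89, SE 0.67), with 5.38 and 5.53 CPM in knockdown libraries, against 0.278 and 0.429 CPM in controls. Of the further integrins, 1 of 2 tested fell in Kyse150, ITGAE (-0.52), and 4 of 7 were lower and 2 higher in TE11 as labelled, ITGA1 at -3.96, ITGA2B at -4.09 and ITGB2 at 2.37.

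Among 19 genes of collagen folding, processing and cross-linking, 11 rose and 2 fell in Kyse150, and 10 were higher and 7 lower in TE11 as labelled. Over all genes the shares were 24.8% higher and 23.3% lower in Kyse150, and 35.9% higher and 42.2% lower in TE11. CRTAP, a subunit of the prolyl hydroxylation complex, rose by 0.86, FKBP10, a chaperone of procollagen, by 0.67, and P4HA3 fell by 0.96 in Kyse150. FKBP10 had 125 and 137 CPM in labelled TE11 knockdown libraries, against 6.33, 5.89 and 6.65 CPM in TE11 controls (4.36), and P3H2 (4.02) and PPIB (1.55) were higher too. Of the further matricellular, fibrillin-related and proteoglycan genes, 9 of 12 rose and 3 fell in Kyse150, and 2 of 20 were higher and 16 lower in TE11 as labelled. CCN1, a matricellular ligand of integrins, had 1696 and 1656 CPM in Kyse150 knockdown libraries, against 924 and 932 CPM in Kyse150 controls (0.86), so that it moved opposite to THBS1. CCN1 was higher in TE11 as labelled (3.74), where LTBP3 and LTBP4, which bind latent TGF-beta, were at -1.38 and 0.18, and SPP1, osteopontin, held 0 counts in labelled knockdown libraries and 939 in controls, at least 157-fold lower. In Kyse150 LTBP4 rose by 1.42 and LTBP3 by 1.07.

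The start of THBS1 was read for its sequence, since THBS1 is the most abundant of the 48 genes in Kyse150 and KDM2A is known to bind CpG. The 150 bases before the RefSeq start, chr15:39580929-39581078 on the plus strand of GRCh38.p14, hold 15 CpG, in capitals.
THBS1: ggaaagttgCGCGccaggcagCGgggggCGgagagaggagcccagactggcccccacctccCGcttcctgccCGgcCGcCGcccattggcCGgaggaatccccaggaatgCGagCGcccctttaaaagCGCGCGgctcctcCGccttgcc

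Of the 48 genes, 43 had an entry among the RefSeq promoters. Their 250 bases upstream of the start held a median of 20 CpG, with a range of 0 to 40, against a median of 11 over 27305 promoters. That background took every gene with an entry, tested here or not, so it is not matched to the 43 genes. THBS1 held 24 CpG in that window, and no background was computed for the shorter stretch shown above. By Kyse150 call, the median was 12 CpG for 17 genes that rose, 24 CpG for 7 genes that fell and 23 CpG for 14 that did not pass. By the call in TE11 as labelled, it was 21 CpG for 17 genes that were higher and 18 CpG for 21 that were lower, so the order of the medians differed between the lines. Medians by call were not computed over all genes. Short motifs were searched on both strands of the window of 250 bases, as letters and with no claim of binding. The letters TGACTCA, an AP-1 motif, occurred before 1 of the 43 genes (2.33%, against 4.16% of all promoters), and GGAATG, a TEAD motif, before 7 (16.3%, against 11.9%), THBS1 among them. TATAAA occurred before 5 (11.6%, against 11.1%) and CCAAT before 12 (27.9%, against 33%), THBS1 and the 4 type IV collagen genes among them.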

How the data were processed

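What the authors deposited is 1 table of raw counts per gene for each line. Per the submitters' processing notes the tools were bcl2fastq 2.19, HISAT2 2.1.0, HTSeq 0.9.1 and DESeq2; they list GRCh37.p13 as well as GRCh38.p13, with no word on which belongs to which table. The strand setting of HTSeq is unstated in the labels, so genes with overlapping exons are uncertain, which concerns 9 of the 48 by over 5% of exon length. HTSeq's summary rows, 55.4% to 58.2% of a column, stayed out of library sizes and tests.

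Groups and replicate numbers came from the sample titles. Each line was fitted separately with edgeR 4.0.16 in R 4.3.3 (robust quasi-likelihood test). TMM scaling and the filterByExpr filter came first, with a count of at least 10 and a total of at least 15. P-values were adjusted by Benjamini-Hochberg across every gene of that fit, and 0.05 was the threshold. Differences between lines came from 1 fit of all 9 libraries, over 15895 of the 52165 genes in both tables, and every CPM level is on the scale of that fit. Levels per kilobase used the exon length of GENCODE 29. Where a group was at 0, a lower bound was computed from 3 counts summed over that group; where it held 1 to 3 counts, the count ratio is printed with its exact 95% interval. Both cover counting error only. Replicate pairs differed by more than sampling noise (chi-square of 1.62 to 4.91 per degree of freedom), and each library was counted as its own sample. Such variation can be technical, so it does not show that replicates came from separate cultures. The script was tested on simulated data.

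The genes and lists were chosen with earlier results of these data known. Genes named with every library were, in each class, up to 4 with the largest called change in Kyse150 and up to 3 in TE11, the type IV collagen pairs, LAMA3, LAMB3, ITGA6, ITGB4, ITGB1 and the largest differences of responses; ITGAV, SDC4 and DST in Kyse150 and the genes of the further lists are given beside them. Alternatives were DESeq2 1.42.0, RLE and upper quartile scaling, no filter, a mean of 1 CPM or more, a replicate block, all 9 libraries in 1 fit, each library left out and, added after seeing the data, the control comparison without the libraries labelled TE11 knockdown.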

Additional observations from a re-analysis of the deposited data

Results flagged for a closer look

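For 39 of the 48 genes, the response in TE11 as labelled differed from that in Kyse150 by the test of the difference itself. The test was in edgeR's fit of all 9 libraries, and genes at 0 counts in a Kyse150 group were left out. Of these differences 15 were positive and 24 negative. Over all 15895 genes of that fit, 66.9% were called for the same difference, 33.8% positive and 33.1% negative. Since the libraries labelled TE11 knockdown do not show lower KDM2A than TE11 controls, the values below compare the libraries as labelled. They are log2 differences, the TE11 response minus the Kyse150 response.

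Among the collagens the difference was -3.19 for COL1A1, 0.65 for COL4A1, 0.95 for COL4A2, -3.31 for COL4A5, -2.70 for COL4A6, -2.81 for COL7A1, 1.35 for COL12A1, 2.38 for COL13A1, 1.75 for COL17A1 and -0.70 for COL18A1; that of COL13A1 rests on 1 count in the TE11 controls. Among the laminins it was -0.35 for LAMA3, -1.05 for LAMA5, -0.49 for LAMB1, -3.29 for LAMB2, -1.58 for LAMB3 and -1.64 for LAMC1. Among the integrins it was -1.28 for ITGA2, -0.18 for ITGA3, -1.91 for ITGAV, 0.45 for ITGB1, 0.72 for ITGB4, 1.24 for ITGB5, -9.61 for ITGB6 and 0.42 for ITGB8. The value of ITGB6 rests on 4 counts in labelled TE11 knockdown and 7 in Kyse150 controls.

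Among the matricellular proteins and glycoproteins it was -13.41 for SPARC, 2.76 for FN1, 2.70 for TNC, 5.71 for THBS1, -6.38 for TGFBI, -2.75 for NID1, -2.58 for HSPG2 and -1.65 for AGRN. In labelled TE11 knockdown and Kyse150 controls, SPARC held 2 and 2 counts and NID1 6 and 9. NID1 was too low to be tested within TE11. Among the collagen-modifying enzymes it was -2.48 for LOXL2, -1.55 for P4HA1, -0.45 for PLOD1, -1.39 for PLOD2 and 2.57 for PLOD3. At the cell surface it was 0.88 for SDC1 and 0.67 for CD44. No group held 4 or more libraries, so no library could be set apart from its own group by a gap test.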

How the results depend on the processing

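Of the 28 genes called in Kyse150, 21 kept their call and direction in every alternative that gave a result for the gene, and of the 43 called in TE11 as labelled, 39 did. COL13A1 in TE11, counted among these, had a result in 10 alternatives, where the other genes called there had 12. The count of genes higher in Kyse150 ran from 16 to 23 over the alternatives (21 as reported) and of genes lower from 5 to 8 (7 as reported); in TE11 as labelled these ranges were 15 to 20 and 23 to 25. DESeq2 moved the counts over all Kyse150 genes to 2156 higher and 2181 lower, against 3490 and 3281 in edgeR; the cause was not tested. Directions turned in genes that were called in no such fit: under upper quartile scaling ITGB1 in Kyse150 (0.0058) and P4HA2 in TE11 (-0.0019), under RLE scaling PLOD2 (-0.00081), with no filter on low counts PLOD2 (-0.0069) and PLOD3 (-0.0033), and with all 9 libraries in 1 fit PLOD2 (-0.0038). Leaving out 1 library at a time gave Kyse150 log2 fold changes of -0.12 to 0.062 for ITGB1, -0.10 to 0.022 for ITGB4, -0.16 to 0.031 for PLOD1, -0.18 to 0.20 for PLOD2, -0.042 to 0.052 for PLOD3 and -0.45 to 0.16 for DST. Replicate numbers did not pair the libraries (correlation of deviations of -0.02 in Kyse150, and 0.0059 and -0.020 in TE11); with the replicate block, 20 of the 48 genes were higher and 7 lower in Kyse150, and 16 higher and 24 lower in TE11 as labelled, with AGRN in Kyse150 (adjusted p = 0.09554) and LAMB1 (0.05196), ITGA3 (0.08802) and SDC4 (0.124) in TE11 not called. The comparison of the controls, fitted without the libraries labelled TE11 knockdown, gave 25 genes higher and 19 lower in TE11 controls. When 1 library was left out its partner was assumed to vary like the others; calls then lost were those of COL4A1, COL4A6, COL7A1, ITGB6, NID1 and AGRN in Kyse150 and of LAMB1, ITGA3, SDC4 and FBN1 in TE11, in genes of few counts and of many. At this depth 5 of the 48 genes could not be tested in Kyse150, nor NID1 in TE11.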
